A study of Mus musculus with 8 samples.

Results

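Insr, Igf1r, Igf1, Irs1, Irs2, Igfbp1, Igfbp2, Igfbp3, Igfbp4 and Foxo1 are the genes described here, and they carry the signal of insulin and of the insulin-like growth factors (IGFs) from ligand to transcription factor. They were chosen by name, as all array probes whose accession belongs to these 10 genes of 21612 on the array. This gave 18 probes of 39429, of which 17 were tested. A probe was tested when every array of a group, control or irisin, read it well above background, as 24093 did. The remaining probe, the second of Igfbp2, was not well above background on any array.

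AML12 is a hepatocyte line from the liver of a mouse that carries a human TGF-α transgene. It was cultured for 24 h with 0.5 µg/ml irisin, the peptide cleaved from the membrane protein Fndc5, or without irisin. Both groups were grown in DMEM F-12 with 10% fetal bovine serum, on 10 cm dishes, and each holds 4 samples, 1 on each one-color Agilent array. The labels number these samples as replicates and do not say that they came from separate cultures, so p-values measure the spread between these samples, which may be technical.

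All 4 control arrays were on 1 slide read in 1 scan and all 4 irisin arrays on another, so slide and treatment cannot be told apart. The 75th percentile of the signal ranged from 372 to 534 on the control arrays and from 682 to 850 on the irisin arrays, 1.66-fold higher by the group means (exact permutation test, two-sided p = 0.0286). This p is the smallest that 4 arrays against 4 can give. Every value below is therefore the log2 of the signal relative to the 75th percentile of its own array, called the normalized signal, and a change is the irisin mean minus the control mean on that scale. A probe or gene was called when it changed at least 1.5-fold with an adjusted p under 0.05 (limma with Benjamini-Hochberg adjustment over all tested probes). Among all tested probes 172 were called up and 2819 down, a split that became 671 and 1021 under quantile normalization, 699 and 927 under cyclic loess, 55 and 98 under a normexp setting described below, 7849 and 361 when spike-in probes set the scale, and 14920 and 162 unscaled. Over the 24093 probes the median change was -0.08 in the main setting, -0.17 under normexp background correction, 0.01 under quantile normalization, 0.02 under cyclic loess, 0.50 on the spike-in scale and 0.66 unscaled.

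Of 10 hepatocyte markers, 9 were well above background on all 8 arrays, Cps1 being the exception. The level of these markers, summed on each array in units of its 75th percentile, was 462 to 513 on control and 375 to 441 on irisin arrays. A sum weighs the brightest markers most, here Krt18 and Trf, which changed by -0.47 and -0.39. The median change of the 9 tested hepatocyte markers was -0.10, and none was called. Cholangiocyte markers summed to 55.4 to 61.9 and 57.9 to 60.9, with 4 of 5 markers on all 8 arrays. Stellate markers summed to 0.102 to 0.151 on control and 0.0673 to 0.0884 on irisin arrays. Of these, Acta2, Col1a1 and Col1a2 were well above background on all 8 arrays, and Des, Lrat and Pdgfrb on none. Endothelial markers summed to 0.701 to 0.788 and 0.413 to 0.584, with Pecam1 and Kdr well above background on all 8 arrays. Cdh5 and Tek were above background on none. Macrophage markers summed to 0.536 to 0.632 and 0.456 to 0.540, with Csf1r and Cd68 well above background on all 8 arrays. T cell markers summed to 0.794 to 0.849 and 0.532 to 0.634. Here Cd3e and Cd4 were well above background on all 8 arrays, and Cd3g and Cd8a on none. Before scaling, the brightest T cell, endothelial and stellate markers overlapped between the groups. Cd4 was at 223 to 345 on control and 320 to 380 on irisin arrays, and Kdr at 261 to 389 and 302 to 435. Col1a2 was at 23.5 to 32.1 and 17.2 to 26.7. What part the shifts in marker sums have in the changes below was not tested.

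Insulin and IGF1 bind related receptor tyrosine kinases, which phosphorylate the docking proteins IRS1 and IRS2 and so activate PI3-kinase and AKT. AKT phosphorylates FOXO1 and keeps it out of the nucleus, which lowers the transcription of FOXO1 targets, among them Igfbp1 and Irs2 in the liver. The liver is the main source of circulating IGF1, most of which travels bound to IGF-binding proteins that limit its access to the receptor.

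RefSeq promoter sequences (GRCm38.p6) were matched for 9 of the 10 genes, and Insr had no entry. The 250 bases before the transcription start are shown for Igfbp1, Irs1 and Irs2, since these promoters hold the core of the insulin response element, and for Igfbp3, the binding protein gene whose groups did not overlap. Igfbp1 and Igfbp3 lie near each other on chromosome 11, on opposite strands. The motifs searched on both strands were CAAAACA (the core of the insulin response element), GTAAACA (a FOXO core) and GGGCGG (an Sp1 box), and capitals mark the matches in the strand of the gene. No 2 matches overlapped.
Igfbp1, chr11:7197537-7197786, + strand: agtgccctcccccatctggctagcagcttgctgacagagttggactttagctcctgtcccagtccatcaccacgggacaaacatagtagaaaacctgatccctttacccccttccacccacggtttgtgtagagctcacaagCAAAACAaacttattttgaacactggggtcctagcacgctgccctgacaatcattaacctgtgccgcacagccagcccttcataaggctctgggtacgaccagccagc
Igfbp3, chr11:7213924-7214173, - strand: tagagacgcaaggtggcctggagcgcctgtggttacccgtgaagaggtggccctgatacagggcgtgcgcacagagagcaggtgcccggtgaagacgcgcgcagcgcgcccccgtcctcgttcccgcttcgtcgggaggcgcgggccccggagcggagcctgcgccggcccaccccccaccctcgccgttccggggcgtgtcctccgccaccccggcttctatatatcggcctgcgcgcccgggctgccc
Irs1, chr1:82291440-82291689, - strand: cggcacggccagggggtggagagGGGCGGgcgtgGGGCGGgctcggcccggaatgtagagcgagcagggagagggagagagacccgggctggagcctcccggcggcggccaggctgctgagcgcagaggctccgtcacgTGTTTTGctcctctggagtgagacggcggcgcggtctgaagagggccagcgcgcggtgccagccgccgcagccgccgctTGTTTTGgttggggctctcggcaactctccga
Irs2, chr8:11008930-11009179, - strand: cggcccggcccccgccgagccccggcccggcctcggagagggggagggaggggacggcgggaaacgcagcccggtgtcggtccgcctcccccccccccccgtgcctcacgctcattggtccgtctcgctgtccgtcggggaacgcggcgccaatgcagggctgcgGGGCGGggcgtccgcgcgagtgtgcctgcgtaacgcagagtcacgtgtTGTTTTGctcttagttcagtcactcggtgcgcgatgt

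CAAAACA stood once in the Igfbp1 promoter, on the gene's own strand, at -108 to -102 from the start. On the other strand, where it reads TGTTTTG, it stood at -111 to -105 and -32 to -26 from the start of Irs1 and at -37 to -31 from that of Irs2. Of 32851 mouse promoters of the same length, 5.56% held this motif, 3.17% the FOXO core and 32.7% the Sp1 box. GTAAACA, the only form searched as a FOXO core, was in none of the matched promoters, which does not show that they lack FOXO sites. The Sp1 box was in the promoters of Igf1r, Irs1, Irs2, Igfbp2 and Foxo1. The sequence of a gene's promoter was taken from the reference and not from these cells.

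On this scale Insr was the only one of the 10 genes called up, and none was called down by its brightest probe. Over all genes tested, each by its brightest probe, 0.531% were called up and 10.2% down. By probe, 2 of the 17 were called up, both of Insr, and 1 was called down, the third probe of Igf1, against 0.714% and 11.7% of all tested probes. The irisin arrays lay above all control arrays for 3 of the 17 probes and below them for 1, against 4.16% and 23% of all tested probes, and the groups overlapped for the other 13. The median change was 0.04 over the 10 genes and -0.06 over all 14312 genes tested. The 10 genes include Igfbp1, which entered the test through the irisin arrays only. A filter on all 8 arrays left it out, and the median of the remaining 9 genes was 0.01.

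**Figure D1:**
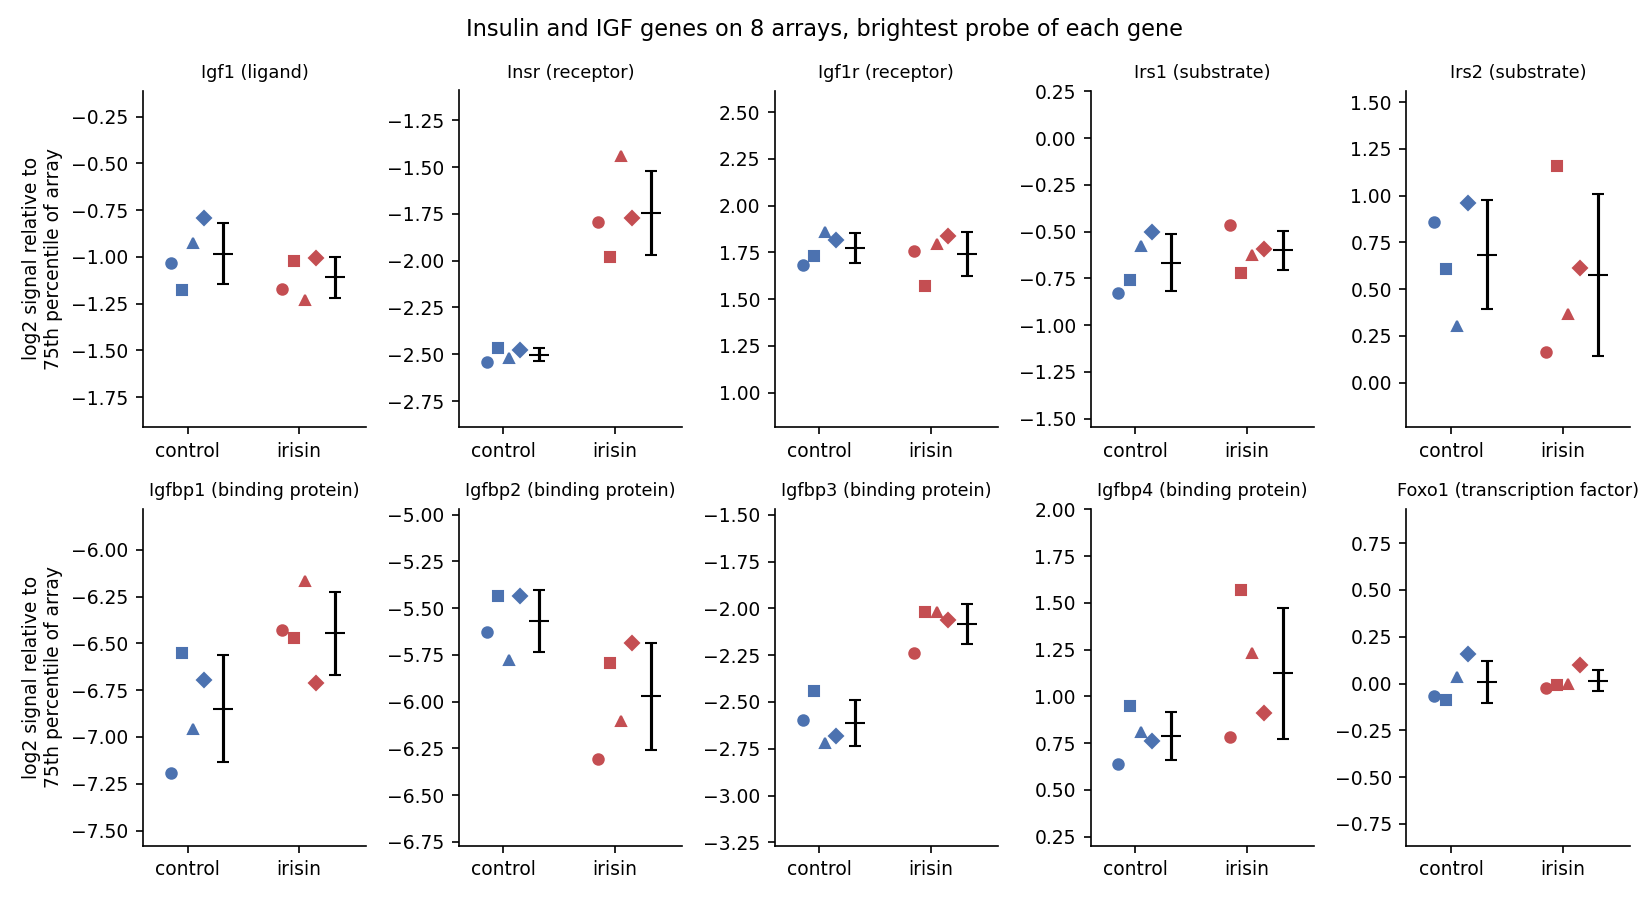
Normalized log2 signal (y axis) of the brightest probe of each of the 10 genes, with 4 control arrays in blue and 4 irisin arrays in red, marker shapes for the replicate number, and a black bar for mean ± SD. Every panel spans the same number of log2 units, and the groups are apart for Insr, at -2.54 to -2.47 against -1.98 to -1.44, and for Igfbp3, at -2.72 to -2.44 against -2.24 to -2.02.

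The ligand gene Igf1 had 4 probes, and they did not move together. The brightest had a normalized signal of -1.04, -1.18, -0.93 and -0.79 on control arrays 1 to 4 and of -1.17, -1.02, -1.23 and -1.01 on irisin arrays 1 to 4. The groups overlapped, and the change was -0.13 ± 0.10 (SE, n = 4 arrays a group, limma adjusted p = 0.441, 95% interval -0.35 to 0.10). The second probe lay at -1.42 to -1.03 in control and -1.44 to -1.28 in irisin arrays, with a change of -0.15 ± 0.10 (limma adjusted p = 0.331).

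The third Igf1 probe, a dim one, fell. It read -5.05, -5.26, -4.90 and -4.90 on the control arrays and -5.97, -5.94, -5.88 and -5.96 on the irisin arrays. All irisin values were lower, and the change was -0.91 ± 0.096 (SE, n = 4, limma adjusted p = 0.000145), a 1.88-fold decrease. Before scaling, its signal was 11.2 to 17.9 on control and 11.1 to 13.7 on irisin arrays, and these ranges overlapped. Quantile normalization gave a change of -0.51 and cyclic loess one of -0.48, both short of 1.5-fold. The fourth probe scattered more than the others, from -6.27 to -5.43 in control and from -6.34 to -4.92 in irisin arrays, and its change of 0.20 ± 0.30 did not pass the test (limma adjusted p = 0.712).

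Insr, the insulin receptor, rose. Its brightest probe read -2.54, -2.47, -2.52 and -2.48 on the control arrays and -1.79, -1.98, -1.44 and -1.77 on the irisin arrays. Every irisin array was above every control array, and irisin array 3 was the highest. The change was 0.76 ± 0.11 (SE, n = 4, limma adjusted p = 0.000638, 95% interval 0.51 to 1.00), a 1.69-fold increase, and the exact two-sided permutation p was 0.0286. In these bulk samples more Insr RNA per cell and more cells with Insr RNA cannot be told apart.

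The second Insr probe gave the same direction, at -2.87, -2.62, -2.66 and -2.49 on the control arrays and -2.09, -2.11, -1.88 and -2.01 on the irisin arrays. The groups did not overlap, and the change was 0.64 ± 0.099 (SE, n = 4, limma adjusted p = 0.000894), a 1.56-fold increase. The third and dimmest Insr probe did not follow, at -4.48, -4.62, -4.30 and -4.33 on the control arrays and -4.40, -4.40, -4.54 and -4.35 on the irisin arrays. Its groups overlapped, and the change was 0.01 ± 0.095 (limma adjusted p = 0.958, 95% interval -0.20 to 0.22). The files place no probe on an exon or transcript variant, so the positions of the 3 probes in Insr were not compared here.

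**Figure D2:**
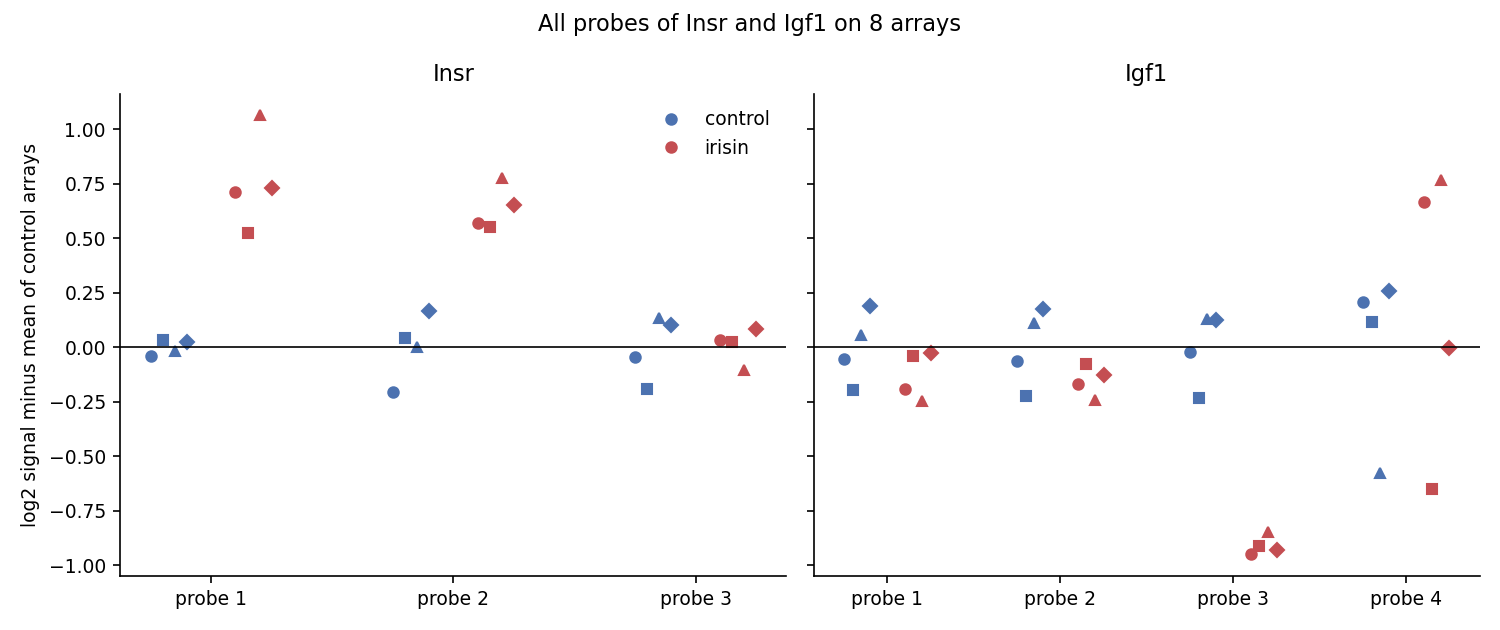
Log2 signal of every Insr and Igf1 probe on each array, as the difference from the mean of the 4 control arrays (y axis, log2 units), with control arrays in blue, irisin arrays in red and marker shapes for the replicate number. The irisin arrays stand above all control arrays at Insr probes 1 and 2, with changes of 0.76 and 0.64, among them at Insr probe 3, and below them at Igf1 probe 3, with a change of -0.91.

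On unscaled signals the first Insr probe was at 63.9 to 93.1 on control and 173 to 297 on irisin arrays. Its change was above 0 in all 22 alternative settings, from 0.40 to 1.5, with a limma adjusted p of at most 0.00344. It fell short of 1.5-fold in 3 of them, which were normexp background correction (0.40), normexp with the arrays scaled before the offset (0.54, chosen after seeing the data) and the mean over the 3 Insr probes (0.47). With each array left out in turn it was 0.66 to 0.84. The other Insr probes also moved with the processing. Probe 2 was called up under quantile normalization (0.68) and cyclic loess (0.71), but not under normexp (0.24) or normexp scaled before the offset (0.40). Probe 3 was not called under normexp (-0.42), quantile normalization (0.26) or cyclic loess (0.29), and was called up on the spike-in scale (0.59) and unscaled (0.75).

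Igf1r encodes the receptor for IGF1. Its single probe read 1.68, 1.73, 1.86 and 1.82 on the control arrays and 1.76, 1.57, 1.80 and 1.84 on the irisin arrays. The groups overlapped, and the change was -0.03 ± 0.088 (limma adjusted p = 0.846, 95% interval -0.23 to 0.16). On the same array, the log2 signal of Insr probe 1 minus that of Igf1r was -4.38 to -4.20 in control and -3.60 to -3.23 in irisin samples. This difference between the receptors does not depend on a scaling factor for the array, and it was higher by 0.79 in irisin samples. It does depend on the background correction and on the probe. Under normexp Insr probe 1 changed by 0.40 and Igf1r by 0.08, and under normexp scaled before the offset by 0.54 and 0.04. Insr probe 3 changed by 0.01 in the main setting. The pair of Insr probe 1 and Igf1r was chosen after its values were seen, so no test is given.

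The genes whose profile was most like that of Insr probe 1 were Zfand6, Ginm1, Mrgprb2, Msantd2 and Pggt1b. Likeness was the root mean square difference in log2 over the 8 arrays, with each profile set to 0 at its control mean, and these genes were at 0.0853 to 0.109 against a median of 0.621 over 14256 genes. Their changes were 0.67, 0.73, 0.71, 0.65 and 0.63 in that order.

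The docking proteins downstream of the receptors showed no called change. Irs1 probe 1 read -0.83, -0.76, -0.57 and -0.50 on the control arrays and -0.47, -0.72, -0.63 and -0.59 on the irisin arrays, with a change of 0.06 ± 0.099 (limma adjusted p = 0.711). Its second, dimmer probe lay at -4.31 to -3.92 in control and -4.70 to -4.19 in irisin arrays, with a change of -0.30 ± 0.13 (limma adjusted p = 0.128). Both Irs1 probes had overlapping groups.

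Irs2, a FOXO1 target in the liver, spread widely, at 0.86, 0.61, 0.31 and 0.96 on the control arrays and 0.16, 1.16, 0.37 and 0.61 on the irisin arrays. The highest and the lowest of these 8 values were both from irisin arrays. The change was -0.11 ± 0.21 (limma adjusted p = 0.775), with a 95% interval of -0.57 to 0.36.

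The binding proteins differed from one another. Igfbp3, which carries most circulating IGF1, was higher on all irisin arrays, at -2.60, -2.44, -2.72 and -2.68 on the control arrays and -2.24, -2.02, -2.02 and -2.06 on the irisin arrays. The change was 0.53 ± 0.092 (SE, n = 4, limma adjusted p = 0.00182, exact permutation p = 0.0286). At 1.44-fold it stood just under the 1.5-fold threshold and was not called. In the 22 alternative settings the Igfbp3 change was 0.29 to 1.27 with a limma adjusted p of at most 0.0178, and it was called in 3 of them, under cyclic loess (0.60), on the spike-in scale (1.10) and unscaled (1.27).

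Igfbp4 read 0.64, 0.95, 0.81 and 0.76 on the control arrays and 0.78, 1.57, 1.23 and 0.91 on the irisin arrays. It was highest on irisin arrays 2 and 3, and the groups overlapped at the other two. The change of 0.33 ± 0.16 did not pass the test (limma adjusted p = 0.167, 95% interval -0.02 to 0.68). It was 0.19 without irisin replicate 2, and Igfbp4 was called up on the spike-in scale (0.91) and unscaled (1.07).

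Igfbp1, the binding protein that insulin represses in the liver, was close to background. It was well above background on 1 of 4 control arrays and on all 4 irisin arrays, so it entered the test through the irisin arrays only. The normalized signal was -7.19, -6.55, -6.96 and -6.70 on the control arrays and -6.43, -6.47, -6.17 and -6.71 on the irisin arrays. The lowest irisin value lay among the control values. The change of 0.40 is given as a description with no test, and its direction moved with the processing, at 1.00 under quantile normalization, 0.95 under cyclic loess and -0.56 under normexp. A filter on all 8 arrays left Igfbp1 out.

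Igfbp2 probe 1, also dim, went the other way, at -5.63, -5.44, -5.77 and -5.43 on the control arrays and -6.31, -5.79, -6.10 and -5.68 on the irisin arrays. The groups overlapped, and the change was -0.40 ± 0.14 (limma adjusted p = 0.0663), which became 0.04 under quantile normalization and 0.05 under cyclic loess. By deciles of mean signal, counted from the dimmest, all tested probes of decile 1, which holds Igfbp1, had a median change of -0.51. It was -0.33 in decile 2, which holds Igfbp2 probe 1 and Igf1 probes 3 and 4. In decile 3, which holds Insr probe 3 and Irs1 probe 2, it was -0.15. In decile 5, which holds Insr probes 1 and 2, Igf1 probe 2 and Igfbp3, it was 0.00.

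**Figure D3:**
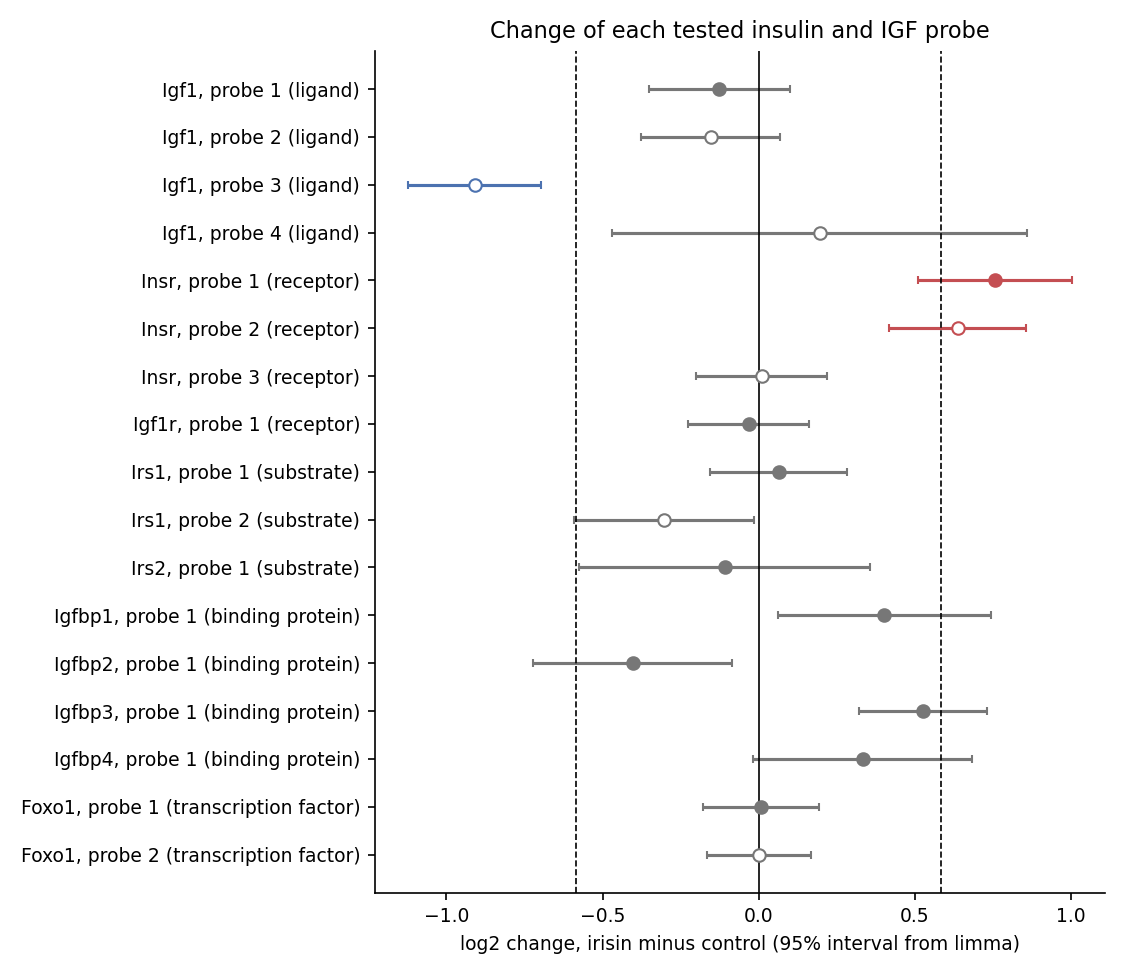
Log2 change, irisin minus control (x axis), of each of the 17 tested probes with its 95% interval from limma. Filled points are the brightest probe of a gene, open points its other probes, red called up, blue called down, gray not called, and dashed lines mark 1.5-fold. Igfbp1 entered the test through the irisin arrays only, so its interval is a description and not a test. Insr probes 1 and 2 are at 0.76 and 0.64, Igfbp3 at 0.53 is short of the line, and Igf1 probe 3 is at -0.91.

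Foxo1, the transcription factor at the end of this path, had a change near 0 at both probes. Probe 1 read -0.07, -0.09, 0.03 and 0.16 on the control arrays and -0.03, -0.01, -0.00 and 0.10 on the irisin arrays. Its change was 0.01 ± 0.084 (limma adjusted p = 0.968, 95% interval -0.18 to 0.19). Probe 2 lay at -0.27 to -0.15 in control and -0.26 to -0.13 in irisin arrays, with a change of 0.00 ± 0.076 (limma adjusted p = 0.990, 95% interval -0.17 to 0.17). AKT acts on the FOXO1 protein, which these arrays do not measure.

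**Figure D4:**
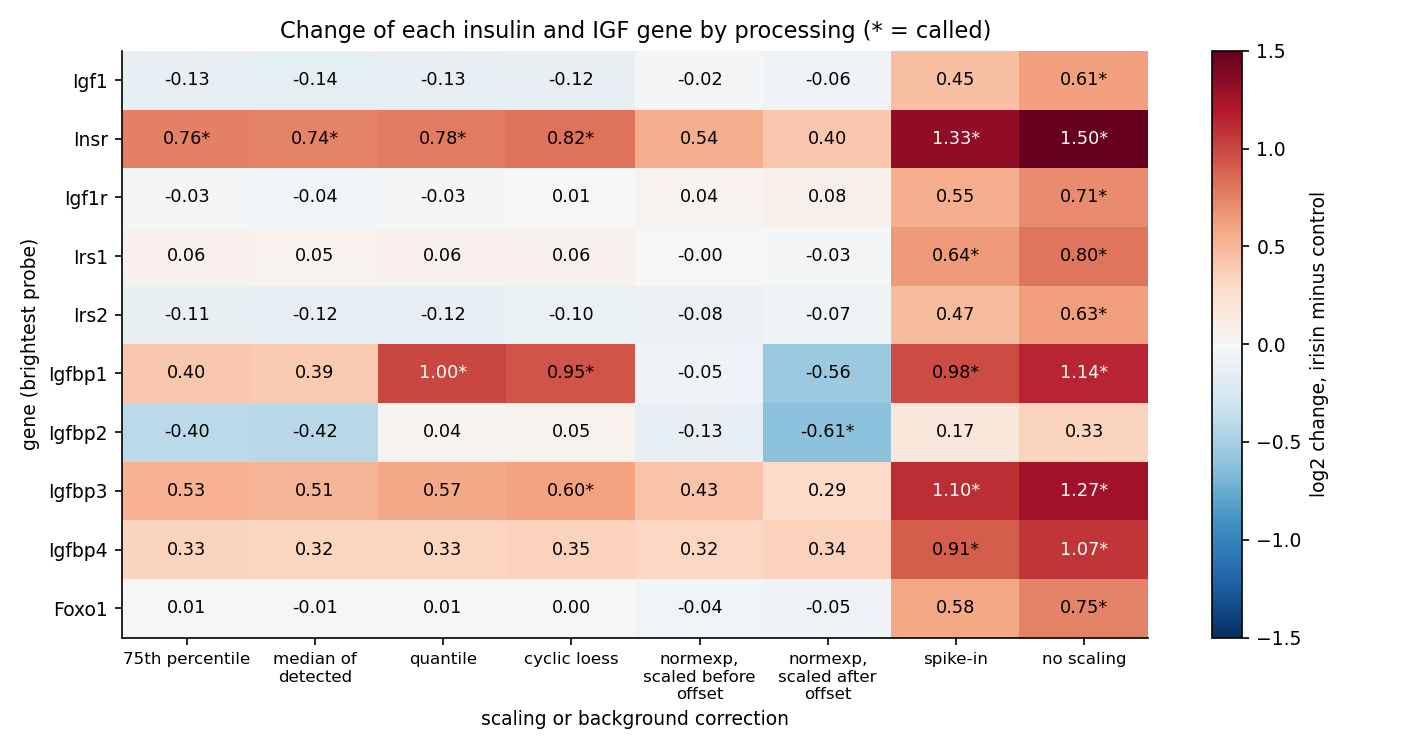
Log2 change, irisin minus control (color and printed value), of the brightest probe of each gene (rows) under 8 ways of scaling or background correction (columns), with * for called. Insr, Igfbp3 and Igfbp4 are above 0 in every column, Insr from 0.40 to 1.5, whereas the other 7 genes change sign across the columns. Igfbp1, marked as called in 4 columns, entered the test through the irisin arrays only, and all genes are above 0 in the last 2 columns, where the brighter irisin arrays were scaled to spike-in probes or not scaled.

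The other genes of the path were taken as a list of 60, all on the array, of which 50 were tested. None was called up and 4 were called down, against 0.531% and 10.2% of all genes tested, and the median change of the list was -0.11. The direction of these calls depended on the scaling. On the spike-in scale 16 of the 50 genes were called up and none down, beside 7849 up and 361 down of all 24093 probes. The median of the list, by the brightest probe of each gene, was 0.47 there, beside 0.50 for all probes. Under quantile normalization 1 gene was called up and 1 down, beside 671 and 1021 of all probes, and the median of the list was -0.01. At an unadjusted limma p under 0.05, 2 of the 50 genes were higher and 11 lower, near the background of 5.94% and 23.6% of all genes tested.

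Among the ligands, Ins1 and Ins2, the insulin genes of the pancreatic islets, were called down and Igf2 was not tested. Ins1 changed by -0.90 ± 0.096 (limma adjusted p = 0.000153) and Ins2 by -0.62 ± 0.091 (limma adjusted p = 0.000699). Before scaling, their signals were 6.27 to 9.004 and 29.2 to 44.8 on control arrays and 5.22 to 8.42 and 36.1 to 46.2 on irisin arrays, so the groups overlapped. Under quantile normalization neither was called (-0.36 and -0.44), and Ins2 also was not called without irisin replicate 1 (-0.55). Igf2r, the receptor that clears IGF2, changed by 0.14 ± 0.087 (limma adjusted p = 0.305).

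Of 8 adaptors none was called. Irs3 and Irs4, relatives of Irs1, changed by -0.55 and -0.46 with non-overlapping groups, short of 1.5-fold (limma adjusted p = 0.00798 and 0.00736). Before scaling the groups overlapped. Irs3, a dim probe, was at 11.4 to 21.3 on control and 15.0 to 21.5 on irisin arrays, and Irs4 at 55.2 to 84.8 and 78.0 to 105. Cbl changed by 0.52 ± 0.24 (limma adjusted p = 0.148). Of 8 receptor inhibitors 7 were tested, and their changes lay between -0.12 and 0.11. They included Ptpn1, the phosphatase that dephosphorylates the insulin receptor, at 0.11 and Socs3 at 0.03.

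Of 9 PI3-kinase and AKT genes none was called. Pik3ca, the catalytic subunit p110α, changed by 0.45 ± 0.13 with non-overlapping groups (limma adjusted p = 0.0266), a 1.37-fold difference short of the threshold. Pik3r1, the regulatory subunit p85α, changed by 0.24 ± 0.10 (limma adjusted p = 0.120). Akt2, the main AKT of insulin action in the liver, changed by -0.29 ± 0.11 at its brightest probe (limma adjusted p = 0.0909). Its other tested probes changed by -0.09, -0.45 and 0.09, and none was called. The lipid phosphatase gene Inppl1 changed by -0.06 ± 0.10 (limma adjusted p = 0.740), and the 5 AKT substrates lay between -0.26 and 0.02.

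Igfbp7, which binds IGF weakly, was called down at -0.61 ± 0.17 (limma adjusted p = 0.0272), with overlapping groups. The call was lost without control replicate 3 (-0.51) or 4 (-0.50) and without irisin replicate 1 (-0.54), 2 (-0.59) or 4 (-0.63). Igfbp6 and Igfals, also of this role, were at -0.21 each and were not called. Stc2, an inhibitor of the proteases that cut binding proteins, changed by -0.18 (limma adjusted p = 0.217).

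Foxo3, a relative of Foxo1, changed by -0.58 ± 0.15 (limma adjusted p = 0.0162), just short of 1.5-fold. Its probe was dim, and its unscaled signal overlapped between the groups, at 8.36 to 15.9 on control and 11.9 to 18.0 on irisin arrays. Of 5 tested FOXO-activated genes, G6pc, the glucose-6-phosphatase of glucose output, was called down at -0.73 ± 0.17 (limma adjusted p = 0.00952), and the other four lay between -0.12 and 0.05. The unscaled signal of G6pc was 6.99 to 13.4 on control and 7.70 to 14.3 on irisin arrays, and under quantile normalization it was not called (-0.27). The insulin-induced genes Srebf1 and Fasn, of fatty acid synthesis, were at -0.12 and 0.06 and were not called.

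Of the growth hormone arm, which drives Igf1 transcription, none of 4 genes was called. Stat5a changed by -0.33 ± 0.10 (limma adjusted p = 0.0395), Stat5b by -0.25 ± 0.10 (limma adjusted p = 0.113) and the receptor gene Ghr by 0.24 ± 0.15 (limma adjusted p = 0.287). The second, dimmer probes of Stat5b and Ghr changed by -0.10 and 0.09 (limma adjusted p = 0.496 and 0.502).

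**Figure D5:**
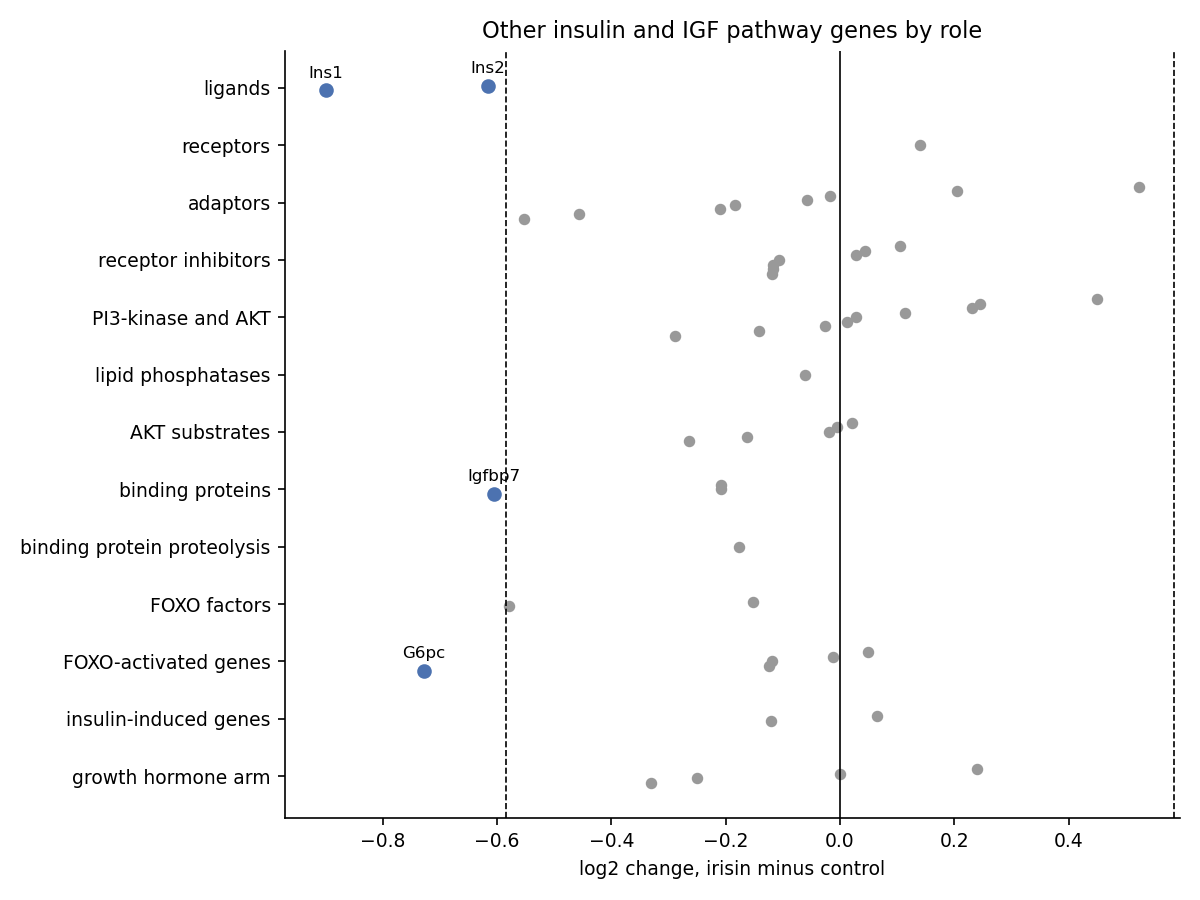
Log2 change, irisin minus control (x axis), of the 50 other pathway genes tested, by role (y axis), with the brightest probe for each gene. Blue points are the 4 genes called down, gray points were not called, and dashed lines mark 1.5-fold. The called genes lie between -0.90 and -0.61, and no gene lies past the upper line.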

How the data were processed

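The authors hybridized Cy3-labeled RNA of 4 control and 4 irisin-treated AML12 samples to Agilent mouse arrays. The authors deposited the signal intensity of each spot from Agilent Feature Extraction 12.0.3.1, with background subtracted on a linear scale, and a value table of the same intensity values, which deviated from them by at most 0.000500%. No normalization between arrays is given in the sources used here.

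Spots marked as outliers were left out, at most 0.463% on an array and none of the genes described. Spots of a probe were averaged on log2, and each array was set to its 75th percentile. Probes were named by accession through RefSeq tables of GRCm38.p6, and 28663 of 39429 probes (72.7%) had 1 symbol. The design of the array is annotated on another build, mm9, so no probe coordinates are printed. For changes, lmFit and eBayes of limma 3.58.1 (R 4.3.3) were run on 24093 probes with Benjamini-Hochberg adjustment. Single probes were also tested by exact permutation, two-sided, over the 70 assignments of the arrays. On simulated arrays of 24023 probes with 200 changed by 1 on the log2 scale, 84% were recovered and 8 unchanged probes were called. The simulated noise was independent for each probe, with as many probes raised as lowered and no difference in slide or brightness between the groups. These counts therefore check the code and do not measure the error of the real comparison. Motifs and plots used Python 3.11.15, pandas 2.3.3 and matplotlib 3.10.9.

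The brightest tested probe stands for a gene, and all other probes of the 10 genes are given beside it. All 10 genes are named, as are pathway genes that were called, at most 3 not called for each role, and the 5 genes most like the gene with the smallest adjusted p. The 10 genes, the pathway list and the tests were chosen with earlier results of these data known. Some genes of the pathway list are not reported here and were left out of its counts. The comparisons were repeated with other background corrections, scalings, filters, thresholds and tests, with the deposited value table, and with each array left out. Groups followed the deposited labels. Replicate numbers, which equal the position on the slide, were not used to pair the samples in the main comparison. The number of arrays and the signal over background limit the precision.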

Additional observations from a re-analysis of the deposited data

Results flagged for a closer look

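In 3 of 44 groups of 4 arrays, 1 array lay far from the other three by Dixon's test, which chance does in about 1 in 20 groups. The fourth Igf1 probe was at -6.27 on control array 3, against -5.57 to -5.43 on the other control arrays. The second Irs1 probe was at -3.92 on control array 4, against -4.31 to -4.27. The second Igfbp2 probe, which was not well above background on any array, was at -8.81 on irisin array 2, against -9.72 to -9.61.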

How the results depend on the processing

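Main counts were 2991 probes of all tested, 1 of the 10 genes (Insr) and 4 pathway genes. They became 1692, 2 and 2 under quantile normalization, 1626, 3 and 2 under cyclic loess, 8210, 5 and 16 on the spike-in scale, 15082, 9 and 33 unscaled, and 153, 0 and 0 under normexp scaled before the offset, which was chosen after seeing the data. The called genes under quantile normalization, under cyclic loess, on the spike-in scale and unscaled include Igfbp1, which was tested only because the irisin arrays passed the filter. An adjusted p alone gave 5910, 2 and 9, a 2-fold threshold 801, 0 and 0, no filter on dim probes 12939, 1 and 9 on a larger base of 39429 probes and 60 pathway genes in place of 24093 and 50, and the methods' test 2705, 1 and 2. With each array left out, the counts were 2791 to 3439, 1 throughout and 3 to 7, the 7 being without control replicate 1. With the replicate number as a block, they were 3008, 1 and 4. Samples of the same number had correlations of 0.11, -0.35, -0.13 and 0.17 of their deviations. Only control 4 and irisin 4 were each other's best match. These low values cannot exclude a weak pairing, and the main comparison did not use one. Normexp (3728, 1 and 5) called Igfbp2 at -0.61 in place of Insr at 0.40.

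The change reversed for Igf1 at 0.45 (spike-in scale) and 0.61 (unscaled), for Irs2 at 0.47 and 0.63, for Igf1r at 0.55 and 0.71, and for Igfbp2 at 0.17 and 0.33. Igfbp2 also reversed at 0.0425 (quantile) and 0.0508 (cyclic loess), and Igf1r at 0.00581 (cyclic loess). Under normexp, and under normexp scaled before the offset, Igf1r was at 0.0798 and 0.0407, Irs1 at -0.0327 and -0.000988, Igfbp1 at -0.56 and -0.0471 and Foxo1 at -0.0508 and -0.0420. Foxo1 was at -0.00606 on the median of detected probes, and Irs1 at -0.12 as the mean over its probes. With each array left out, Igf1r ranged from -0.0639 to 0.0241, reversing without irisin replicate 2, Irs2 from -0.30 to 0.0294, reversing without irisin replicate 1, and Foxo1 from -0.0261 to 0.0564. The causes were not tested. Dim probes limit Igfbp1, Igfbp2 and Igf1 probes 3 and 4.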
